A study of Rattus norvegicus with 16 samples.

Results

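The AP-1 transcription factors and their fellow immediate early genes were examined in tissues of rat bone defects with and without a cement spacer. The genes were Fos, Fosb, Fosl1, Fosl2, Jun, Junb, Jund, Egr1, Egr2 and Atf3, taken from the table by symbol, and all 10 were found among the 14476 genes of the deposited count table. All 10 passed the filter on low counts and were among the 12857 genes tested. Each of 4 Sprague-Dawley rats carried a plated osteotomy in both limbs, with a polymethyl methacrylate (PMMA) cement spacer placed in the defect on 1 side, as in the first stage of the Masquelet technique, and nothing on the other. Tissue was collected 4 weeks later, and poly-A RNA was sequenced in 4 groups with 1 library per rat in each. The induced membrane (IM) is the sheath that had grown around the spacer, and the pre-fibrous non-union (PFNU) is the tissue that had filled the empty osteotomy. PMMA bone is bone beside the spacer and BNED is bone next to the empty defect. All groups therefore come from the same 4 animals, all share the osteotomy and the plate, and no unoperated tissue is used here; the labels give neither age nor sex.

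AP-1 is a dimer of leucine zipper proteins. Fos family proteins cannot pair with themselves and bind DNA with a Jun family partner, whereas Jun proteins can also pair with each other or with ATF factors. Serum, growth factors, mechanical load and tissue injury induce Fos, Fosb, Jun, Junb, Egr1, Egr2 and Atf3 within minutes through MAP kinases, serum response factor and CREB, and the transcripts are short-lived. In bone, Fos is required for osteoclast formation and Fosl1 and Fosl2 act in matrix-forming osteoblasts.

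The promoters of Jund and Junb are shown because these were the members that passed the test between spacer and empty defect, Jund in the defect tissue and Junb in the bone. Each runs from 250 bases before to 50 bases after the gene start, is printed 5' to 3' on the strand of the gene and comes from RefSeq on build GRCr8, where Jund is at chr16:18769722-18770021 on the minus strand and Junb at chr19:40080876-40081175 on the plus strand. Capitals mark a cyclic AMP response element (CRE, TGACGTCA), its shorter core TGACG, read on either strand, and, in Junb, a TATAAA box.
Jund: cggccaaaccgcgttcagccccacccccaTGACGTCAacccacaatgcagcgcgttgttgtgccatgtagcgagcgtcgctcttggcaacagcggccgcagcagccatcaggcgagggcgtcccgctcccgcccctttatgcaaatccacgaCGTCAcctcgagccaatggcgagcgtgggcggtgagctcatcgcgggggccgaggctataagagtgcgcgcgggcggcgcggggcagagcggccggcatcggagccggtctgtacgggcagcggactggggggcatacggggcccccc
Junb: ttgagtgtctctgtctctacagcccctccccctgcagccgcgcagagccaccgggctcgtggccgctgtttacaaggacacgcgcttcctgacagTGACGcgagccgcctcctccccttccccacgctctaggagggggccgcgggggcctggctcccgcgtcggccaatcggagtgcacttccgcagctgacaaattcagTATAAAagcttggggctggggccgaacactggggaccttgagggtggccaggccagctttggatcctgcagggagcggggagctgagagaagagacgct
The table of promoters held 7 of the 10 members, all but Fos, Jun and Atf3. The full CRE was found in 1 of these, Jund, beginning at position -221 from the start, against 1.91% of the 27457 rat promoters of the same length. A separate core in Jund, on the other strand, begins at -98. In Junb the core begins at -155 and the TATAAA box at -49. The core was present in 5 of the 7 members' promoters and in 22.0% of all promoters, counts that include cores inside a full CRE. None of the 7 held the AP-1 element TGANTCA, which 7.33% of all promoters held. The CArG box, the element bound by serum response factor, was found in 2 of the 7 (Egr1 and Egr2) and in 1.64% of all promoters. Both strands were searched for each motif except TATAAA, which was searched on the strand of the gene, where 1 of the 7 members and 9.08% of all promoters held it. Among the 10553 searched promoters of genes in the count table, 2.85% held the CRE and 29.3% its core. The element TGANTCA was in 5.62% of them, the CArG box in 1.27% and TATAAA in 5.7%. A match of letters is a description and not a measured binding site.

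Libraries held 40472228 to 76815879 counts. Principal component 1, with 48.0% of the variance, parted defect tissue from bone, and the PMMA bone library of rat 1 lay at 90.3 on it, among the BNED libraries (47.6 to 97.2) and away from the PMMA bone of rats 2 to 4 (15.6 to 41.8). Its summed level of 12 erythroid markers was 78312 CPM (counts scaled to a common library size), against 4364 to 13260 CPM in the other 3 PMMA bones and 41559 to 72346 CPM in BNED. Summed levels of 15 skeletal muscle markers were 25036, 44169, 178692 and 232605 CPM in the membranes of rats 1 to 4, 69857 to 171107 CPM in PFNU and 1818 to 45046 CPM in bone. Bulk tissue was sequenced, so fewer cells of a type and less RNA per cell cannot be told apart.

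**Figure D1:**
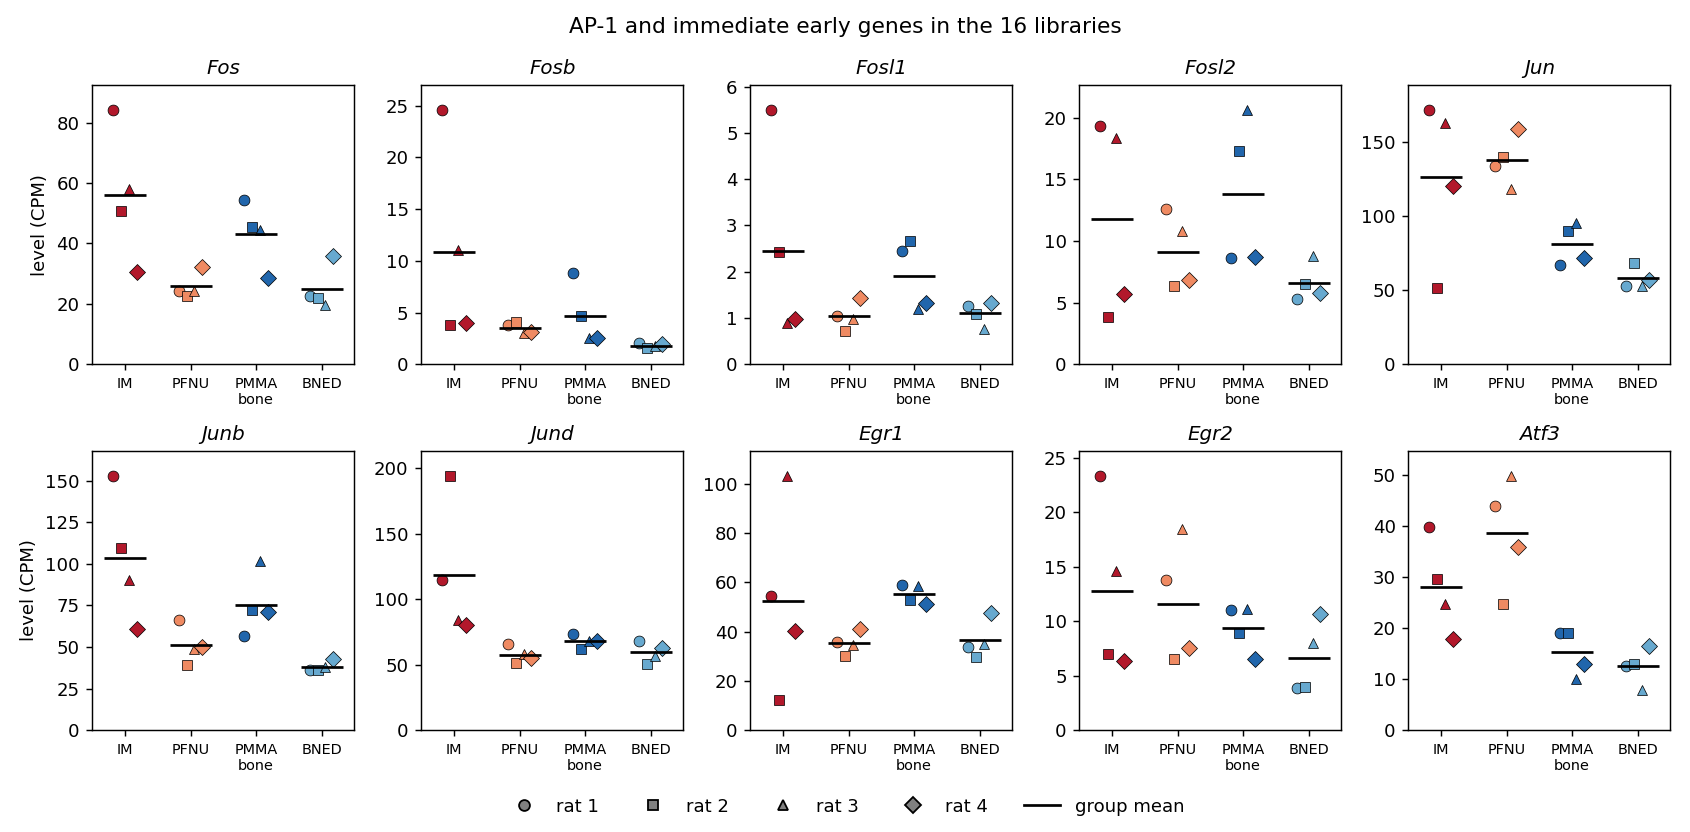
Level of each of the 10 genes in all 16 libraries, in CPM on a linear axis that starts at 0 and has its own scale in each panel. Symbols mark the rat and bars the mean of 4 libraries; the membrane of rat 1 is the highest membrane for 8 of the 10 genes, and the BNED libraries lie close together for Fosb and Junb.

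The first question was how a spacer limb differs from an empty one, in the defect (IM against PFNU) and in the neighbouring bone (PMMA bone against BNED). Fos, Fosb, Fosl1, Junb and Jund showed fitted levels 2.02 to 3.08-fold higher in the membrane than in PFNU, but Jund alone passed an adjusted p of 0.05. In bone, all 10 genes had fitted levels above those of BNED, between 1.14-fold (Jund) and 2.56-fold (Fosb), and Junb alone passed. That is 1 of 10 members in the defect tissue, where 0.863% of all genes tested were called and 0.366% were called as higher, and 1 of 10 in bone, where 4.91% were called. The libraries of the spacer side lay wholly above those of the empty side for 1 member in the defect tissue, against 3.96% of all genes, and for 3 in bone (Fosb, Junb and Egr1), against 12%. No member lay wholly below, against 3.31% of all genes in the defect tissue and 7.05% in bone. The median log2 fold change of the 10 genes was 0.79 in the defect tissue, with 8 of 10 above 0, and 0.69 in bone, with 10 of 10 above 0; over all genes tested the medians were 0.01 and -0.01 and the shares above 0 were 51.2% and 49.3%. At an unadjusted p under 0.05 the counts were 5 and 4 of the 10, against 15.5% of all genes tested in the defect tissue and 24.3% in bone. Each adjusted p here and below is from the edgeR quasi-likelihood test with Benjamini-Hochberg adjustment over all 12857 genes unless another tool is named.

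Among the Fos family, Fos itself, the founding partner of Jun in AP-1, was at 84.1, 50.7, 58.1 and 30.6 CPM in the membranes of rats 1 to 4. In PFNU the same rats gave 24.1, 22.7, 24.3 and 32.2 CPM. The membranes of rats 1 to 3 all lay above every PFNU library, whereas that of rat 4 lay inside the PFNU range, so the groups overlapped. The log2 fold change was 1.11 (SE 0.28, 95% interval 0.51 to 1.71) with an adjusted p of 0.0787. Without the membrane of rat 4, Fos was called, at a log2 fold change of 1.33 and an adjusted p of 0.0207. Bone repeated the layout by rat. PMMA bone held 54.5, 45.4, 44.4 and 28.6 CPM in rats 1 to 4 and BNED 22.6, 21.9, 19.7 and 35.8 CPM, so that the first 3 PMMA bones exceeded all BNED libraries and rat 4 had the order turned round. The log2 fold change in bone was 0.79 (SE 0.28, adjusted p = 0.1104).

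Fosb, an activity-induced relative of Fos, was at 24.5, 3.77, 11.1 and 3.95 CPM in the membranes of rats 1 to 4 and at 3.83, 4.11, 3.01 and 3.13 CPM in PFNU. The membranes of rats 1 and 3 were far above PFNU and those of rats 2 and 4 were close to it. The log2 fold change of 1.62 (SE 0.53) did not pass (adjusted p = 0.159), and it was 0.82 without the membrane of rat 1. In PMMA bone Fosb was at 8.80, 4.63, 2.56 and 2.49 CPM, and in BNED at 2.01, 1.55, 1.72 and 1.92 CPM. All PMMA bones lay above all BNED libraries, yet the log2 fold change of 1.36 (SE 0.53) had an adjusted p of 0.142. Without the PMMA bone of rat 1 it was 0.84.

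Fosl1 and Fosl2 encode the Fos-related antigens Fra-1 and Fra-2, which are induced later than Fos. Fosl1 was the member with the fewest counts, 37 to 286 per library. Its level was 5.49 CPM in the membrane of rat 1 and 2.43 CPM in that of rat 2, whereas the membranes of rats 3 and 4, at 0.886 and 0.987 CPM, lay within the PFNU range of 0.721 to 1.42 CPM. The log2 fold change was 1.23 (SE 0.51, adjusted p = 0.264) in the defect tissue and 0.78 (SE 0.51, adjusted p = 0.368) in bone, and in the defect tissue it was 0.51 without the membrane of rat 1. Fosl2 split the membranes differently, with rats 1 and 3 at 19.3 and 18.4 CPM and rats 2 and 4 at 3.83 and 5.67 CPM, against 6.31 to 12.6 CPM in PFNU. In bone Fosl2 was at 8.62 to 20.6 CPM beside the spacer and 5.28 to 8.80 CPM beside the empty defect, and its log2 fold change of 1.06 (SE 0.47) had an adjusted p of 0.181.

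Among the Jun family, Junb, which pairs with Fos proteins and often restrains Jun, was at 152.6, 109.7, 90.2 and 60.6 CPM in the membranes of rats 1 to 4. PFNU held 66.4, 39.1, 48.7 and 50.1 CPM in the same rats. Only the membrane of rat 4 lay inside the PFNU range, and the log2 fold change of 1.02 (SE 0.25, 95% interval 0.48 to 1.55) had an adjusted p of 0.0716. In bone Junb was at 56.3, 72.0, 101.4 and 70.9 CPM beside the spacer and at 36.3, 35.9, 37.9 and 42.5 CPM beside the empty defect. The bone groups did not overlap, and Junb was called with a log2 fold change of 0.98 (SE 0.25, 95% interval 0.44 to 1.51, adjusted p = 0.0397). With the rat as a block the log2 fold change was 0.98 and the call was lost (adjusted p = 0.0554). The call was made in 7 of 16 fits that each left out a library. It was lost without any single BNED library, without the PMMA bone of rat 2, 3 or 4, and without the PFNU of rat 3 or 4, at log2 fold changes of 0.80 to 1.03 in those fits. Without the PMMA bone of rat 1, the library that stood apart, the log2 fold change was 1.095 with an adjusted p of 0.0103. Over its 25 alternatives the adjusted p ran from 0.000115 to 0.679 and the log2 fold change from 0.59 to 1.095.

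Jund is the Jun gene that many cells express without stimulation. It was at 114.6, 193.8, 84.3 and 80.4 CPM in the membranes of rats 1 to 4 and at 65.8, 51.6, 58.3 and 55.2 CPM in PFNU. Every membrane lay above every PFNU library, with rat 2 the highest, and Jund was called with a log2 fold change of 1.03 (SE 0.23, 95% interval 0.55 to 1.52, adjusted p = 0.0482). The call was narrow. With the rat as a block the adjusted p was 0.0992 at a log2 fold change of 1.00, and in 16 fits without a library each it was kept in 3, those without the membrane of rat 3, the membrane of rat 4 or the PMMA bone of rat 1. Without the membrane of rat 2 the log2 fold change was 0.69 (adjusted p = 0.0694), and over its 25 alternatives the adjusted p ran from 0.00486 to 0.280. In bone Jund was at 73.3, 62.2, 68.3 and 67.8 CPM beside the spacer and at 68.1, 50.5, 56.8 and 62.9 CPM beside the empty defect. Those groups overlapped, and the log2 fold change of 0.19 had a 95% interval of -0.30 to 0.67 (adjusted p = 0.639).

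Jun, the gene that names the family, was at 171.1, 51.5, 162.6 and 119.9 CPM in the membranes and at 133.4, 139.8, 118.3 and 158.6 CPM in PFNU of rats 1 to 4. The membrane of rat 2 was below all PFNU libraries and those of rats 1 and 3 were above them. The log2 fold change was -0.12 (SE 0.27, adjusted p = 0.887) and turned to 0.14 without the membrane of rat 2. In bone Jun was at 67.1 to 95.3 CPM beside the spacer and 52.6 to 68.5 CPM beside the empty defect, a log2 fold change of 0.49 with an adjusted p of 0.291.

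Egr1 and Egr2 are zinc finger factors that serum response factor and its cofactors switch on. Egr1 was at 54.6, 12.3, 103 and 40.3 CPM in the membranes of rats 1 to 4, the widest relative range of any member in any group, 8.40-fold from lowest to highest. PFNU lay inside that range, at 30.1 to 41.1 CPM, and the log2 fold change was 0.57 (SE 0.40, adjusted p = 0.537). In bone Egr1 was at 59.1, 52.9, 58.4 and 51.1 CPM beside the spacer and at 33.6, 29.7, 35.0 and 47.4 CPM beside the empty defect. These bone groups did not overlap, but with an SE of 0.40 from all 4 groups the log2 fold change of 0.61 had an adjusted p of 0.369. Fitted on the bone libraries alone, Egr1 was called (log2 fold change 0.605, adjusted p = 0.0276). Egr2 was at 6.38 to 23.3 CPM in the membranes, 6.50 to 18.5 CPM in PFNU, 6.57 to 11.1 CPM in PMMA bone and 3.89 to 10.6 CPM in BNED, with log2 fold changes of 0.15 and 0.51 (adjusted p = 0.924 and 0.513).

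Atf3, a stress-induced ATF factor that can pair with Jun proteins and often represses, was the member with the lowest fitted ratio of membrane to PFNU. It was at 39.9, 29.8, 24.8 and 17.9 CPM in the membranes and at 44.0, 24.8, 49.8 and 36.0 CPM in PFNU of rats 1 to 4. The ranges overlapped and the log2 fold change of -0.46 (SE 0.30) had an adjusted p of 0.493. In bone it was at 10.1 to 19.1 CPM beside the spacer and 7.91 to 16.5 CPM beside the empty defect, a log2 fold change of 0.29 (adjusted p = 0.570).

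**Figure D2:**
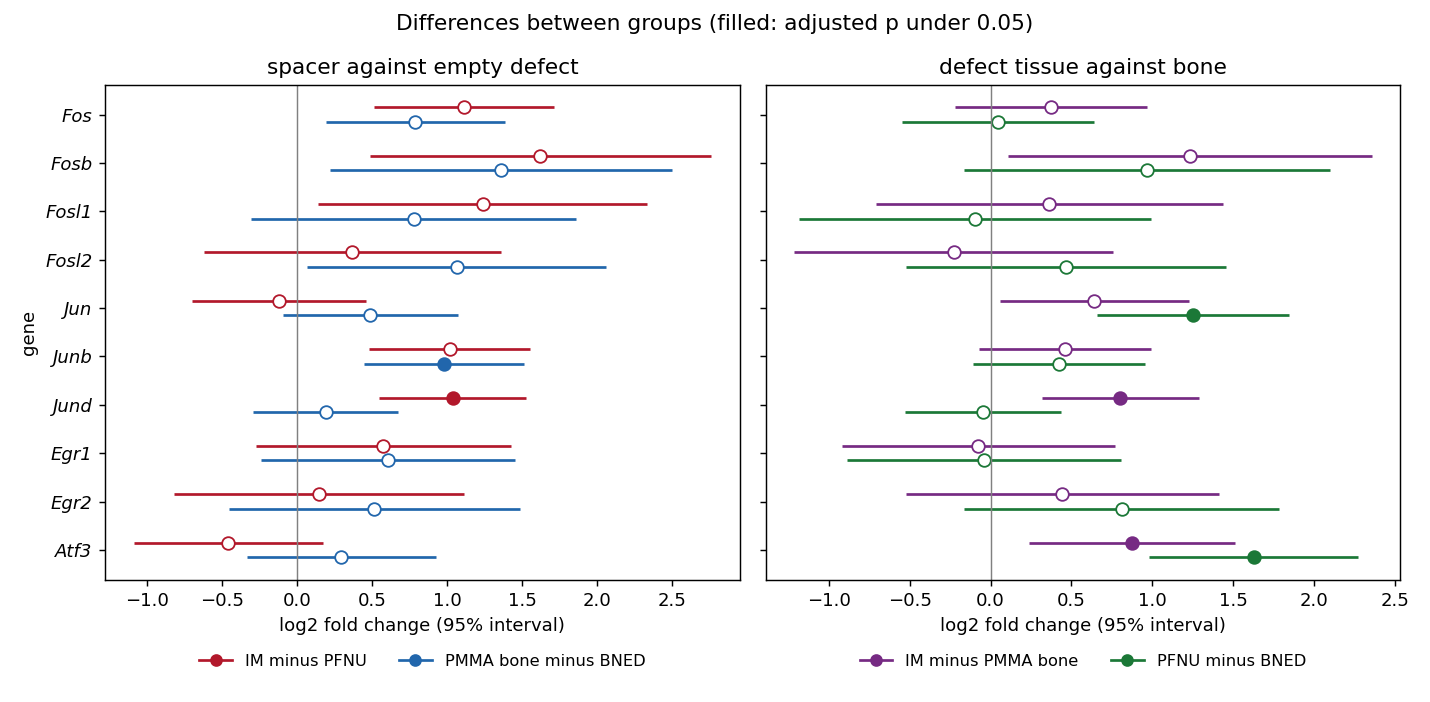
Log2 fold change of each gene with its 95% interval from the edgeR fit over all 16 libraries, for spacer against empty defect (left) and defect tissue against bone (right). Filled points passed an adjusted p of 0.05; on the left only Jund in the defect tissue (1.03) and Junb in bone (0.98) are filled, and on the right Jund, Jun and Atf3.

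Whether the spacer's difference itself differed between defect tissue and bone was tested as an interaction. No member passed, and none of the 12857 genes did with edgeR, a called share of 0%; 1149 genes (8.94%) and 1 of 10 members had an unadjusted p under 0.05, DESeq2 called 136 genes and limma-voom 218, none of them a member. Jund had the lowest p of the members, with a difference of 0.85 in log2 fold change (SE 0.32, unadjusted p = 0.0185, adjusted p = 0.477) and an interval of 0.16 to 1.53. For Junb the 2 tissues had nearly equal values, a difference of 0.04 with an interval of -0.71 to 0.79, which spans 0. Jun and Atf3 had differences of -0.61 (adjusted p = 0.683) and -0.75 (adjusted p = 0.640).

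Because each rat gave both limbs, the differences could also be read within animals, on log2 CPM with a prior count of 2. Junb was higher on the spacer side in 4 of 4 rats in both tissues, by 1.20, 1.49, 0.89 and 0.27 in the defect tissue and by 0.63, 1.00, 1.42 and 0.74 in bone. Jund was also higher in 4 of 4 rats in both, by 0.80, 1.91, 0.53 and 0.54 in the defect tissue and by 0.10 to 0.30 in bone. Fos was higher by 1.80, 1.16 and 1.26 in the defect tissue of rats 1 to 3 and by 1.27, 1.05 and 1.17 in their bone, and differed by -0.07 and -0.33 in rat 4. Rat 4 had the fewest members above 0 in both tissues. In its defect tissue 3 of 10 members were higher on the spacer side, against 9, 6 and 7 in rats 1 to 3, while over all genes the share was 54.9% in rat 4 and 45.1 to 53.3% in the others. In its bone 6 of 10 were higher, against 10 of 10 in each other rat, with 49.6% of all genes in rat 4 and 49.6 to 56.2% in the others. Rat 4 also had the membrane with the highest muscle marker sum (232605 CPM) and the lowest fibroblast marker sum (11858 CPM). The part of these sums in the counts of rat 4 was not tested.

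**Figure D3:**
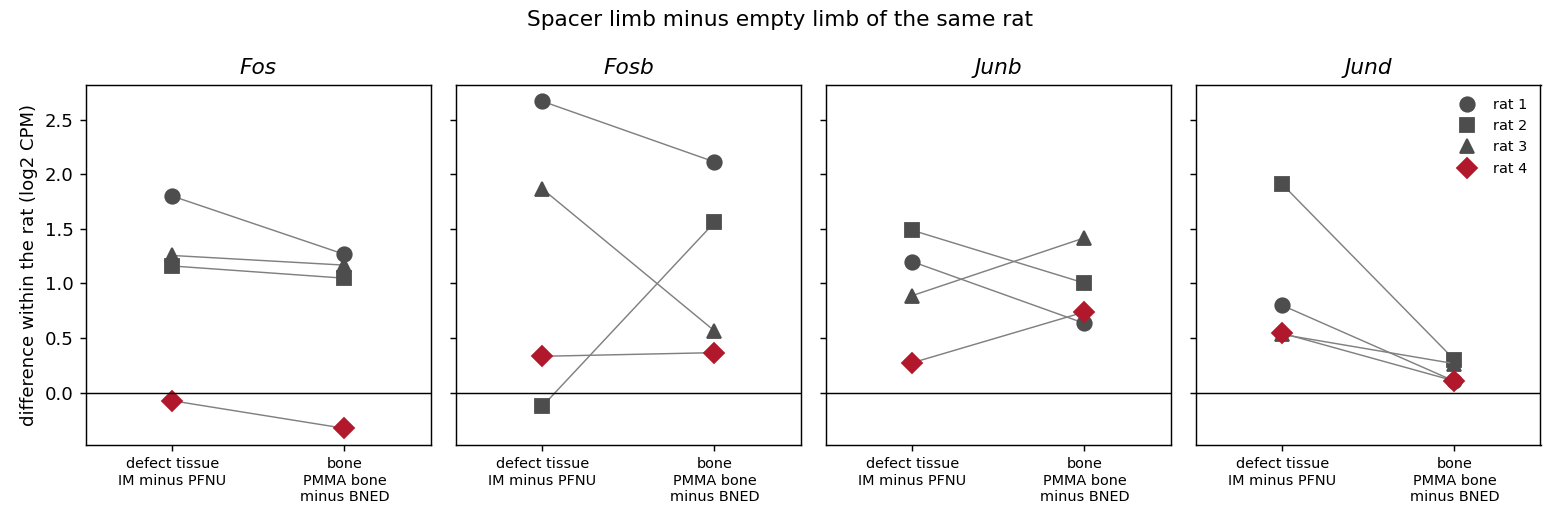
Difference between spacer and empty limb within each rat, in log2 CPM, of Fos, Fosb, Junb and Jund in the defect tissue and in bone; each symbol is a rat, joined by a line, and 0 means equal levels. Junb and Jund lie above 0 in all 4 rats in both tissues, whereas Fos lies above 0 in rats 1 to 3 and below 0 in rat 4.

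The second question was how defect tissue differs from the neighbouring bone of the same limb. In the empty limb, Atf3 and Jun were both higher in PFNU than in BNED, 3.09-fold and 2.38-fold, with no overlap between the groups. These were 2 of 10 members called, all higher, in a comparison where 30.2% of all genes tested were called and 15% were called as higher. At an unadjusted p under 0.05 the count was 2 of 10, against 42.9% of all genes. Fosb was the third member without overlap, a count of 3 of 10 against 18.9% of all genes. Atf3 had a log2 fold change of 1.63 (SE 0.30, 95% interval 0.98 to 2.27, adjusted p = 0.00139) and Jun of 1.25 (SE 0.28, 95% interval 0.66 to 1.84, adjusted p = 0.00409). Both were higher in 4 of 4 rats, Atf3 by 1.81, 0.92, 2.65 and 1.12 and Jun by 1.33, 1.03, 1.17 and 1.48, and both calls were made in 16 of 16 fits without a library each and with the rat as a block. Fos, Fosl1, Jund and Egr1 had log2 fold changes between -0.10 and 0.05 here, each with an interval that reaches at least 0.44 above 0 and 0.53 below it.

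The erythroid marker sum of PFNU, 872 to 4350 CPM, did not overlap that of BNED, 41559 to 72346 CPM, so marrow content and group cannot be told apart in this comparison. With that sum as a covariate the log2 fold change was 0.50 for Jun (adjusted p = 0.575) and 1.73 for Atf3 (adjusted p = 0.175), and no gene of the 12857 was called, with 2449 at an unadjusted p under 0.05. With the muscle sum as a covariate Jun was at 1.04 (adjusted p = 0.0883) and Atf3 at 2.05 (adjusted p = 0.00515), and Egr2, at 0.81 without it (adjusted p = 0.190), was called at 2.01 (adjusted p = 0.0159). The muscle sum of PFNU, 69857 to 171107 CPM, did not overlap that of BNED either, 4245 to 45046 CPM. Muscle content and group therefore cannot be told apart in that fit. Fitted on these 2 groups alone, Fosb was called at 0.92 (adjusted p = 0.00796; 0.97 and 0.178 with all 4 groups). Over its 25 alternatives the adjusted p of Jun ran from 8.28e-06 to 0.575 and that of Atf3 from 4.71e-06 to 0.175.

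In the spacer limb, Jund and Atf3 were higher in the membrane than in PMMA bone. These were 2 of 10 called, against 22.2% of all genes tested and 11.3% called as higher, and 4 of 10 had an unadjusted p under 0.05, against 37.4%. Jund had no overlap, as had 7.75% of all genes in this direction, and a difference of 0.80 in log2 level (SE 0.23, adjusted p = 0.0225). Its call was kept with the rat as a block (adjusted p = 0.0386) and in 13 of 16 fits without a library each, being lost without the PMMA bone of rat 2, 3 or 4; without the membrane of rat 2 the log2 fold change was 0.46 (adjusted p = 0.0424). Over its 25 alternatives the adjusted p ran from 0.00816 to 0.113. Atf3 differed by 0.87 on the log2 scale (SE 0.30, adjusted p = 0.0472), with the membrane of rat 4 (17.9 CPM) inside the PMMA bone range. Its call was lost with the rat as a block (adjusted p = 0.0558) and was made in 6 of 16 fits without a library each, those without the membrane of rat 4, the PFNU of rat 2 or 3, the PMMA bone of rat 2 or the BNED of rat 3 or 4; over its 25 alternatives the adjusted p ran from 0.0209 to 0.251. Jun, at a log2 fold change of 0.64 (adjusted p = 0.102), was called without the membrane of rat 2, at 0.90 (adjusted p = 0.00486). By limma-voom Fosb (1.59, adjusted p = 0.0114) and Jun (0.76, adjusted p = 0.0174) were called and Atf3 was not (adjusted p = 0.0730). With the muscle sum as a covariate Egr2, at 0.44 without it (adjusted p = 0.503), was called at 1.89 (adjusted p = 0.0459), and Atf3 was at 1.42 (adjusted p = 0.0538). That sum was 25036 to 232605 CPM in the membranes and 1818 to 11380 CPM in PMMA bone, with no overlap. Muscle content and group therefore cannot be told apart in that fit. The comparisons in this and the preceding paragraphs share libraries, so their values stand side by side and are not independent of each other.

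Set in order, the mean of Junb was highest in the membrane (103.3 ± 38.6 CPM, SD, n = 4), then PMMA bone (75.2 ± 18.9), PFNU (51.1 ± 11.3) and BNED (38.1 ± 3.03). Of the neighbours in that order that were compared, IM and PMMA bone did not differ beyond their spread (log2 fold change 0.46, adjusted p = 0.196), nor did PFNU and BNED (0.42, adjusted p = 0.212). Jund ran from the membrane (118 ± 52.6 CPM) to PMMA bone (67.9 ± 4.51), BNED (59.6 ± 7.62) and PFNU (57.7 ± 6.05), and only the step from the membrane to PMMA bone passed. For Jun and Atf3 both defect tissues had higher means than both bones. Jun was at 138 ± 16.7 CPM in PFNU, 126 ± 54.7 in the membrane, 80.9 ± 13.6 in PMMA bone and 57.8 ± 7.43 in BNED, and Atf3 at 38.6 ± 10.8, 28.1 ± 9.25, 15.3 ± 4.52 and 12.5 ± 3.54 CPM in the same order. Fos had a different order, 55.9 ± 22.1 CPM in the membrane, 43.2 ± 10.8 in PMMA bone, 25.8 ± 4.31 in PFNU and 25.04 ± 7.31 in BNED.

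The membranes varied most among themselves. The median coefficient of variation of the 10 genes was 53.2% in the membranes, from 32.9% (Atf3) to 90.0% (Fosb), against 19.4% in PFNU, 25.0% in PMMA bone and 21.9% in BNED. The medians over all genes were 37.1, 20.1, 19.7 and 17.3% in the same groups, so the membranes were also the most variable group for genes in general. The membrane of rat 1 was the highest of the 4 membranes for 8 of 10 members, all but Jund and Egr1, where 26.7% of all genes were highest. The membrane of rat 2 was the highest for Jund and the lowest for Fosb, Fosl2, Jun and Egr1, and that of rat 4 was the lowest for Fos, Junb, Jund, Egr2 and Atf3. Macrophage marker sums of 12 genes were 8023, 7689, 2763 and 1793 CPM in the membranes of rats 1 to 4, and fibroblast marker sums of 10 genes were 46109, 28130, 22458 and 11858 CPM, with no gene of either list at 0 in any library. Their part in the spread was not tested.

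The 10 genes did not move as 1 block over the 16 libraries, which come from 4 rats and share tissue and scaling, so that correlations are descriptions only. Of the 45 pairs, Fos and Junb had a Pearson r of 0.83 (Spearman 0.81), which was 0.71 without the 2 libraries farthest from the median of Fos and 0.54 for deviations from the group means. Fos and Fosb had 0.80 (Spearman 0.71), which was 0.60 and 0.70 on the same terms. Junb and Jund had 0.74 (Spearman 0.74), then 0.64 and 0.46. Jun and Egr1 had 0.41 over all libraries, 0.20 without the 2 farthest libraries and 0.83 within groups. Jun and Jund had -0.09 over all, 0.11 without the 2 farthest and -0.77 within groups. The membrane of rat 2 was the highest membrane for Jund and the lowest for Jun and Egr1.

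**Figure D4:**
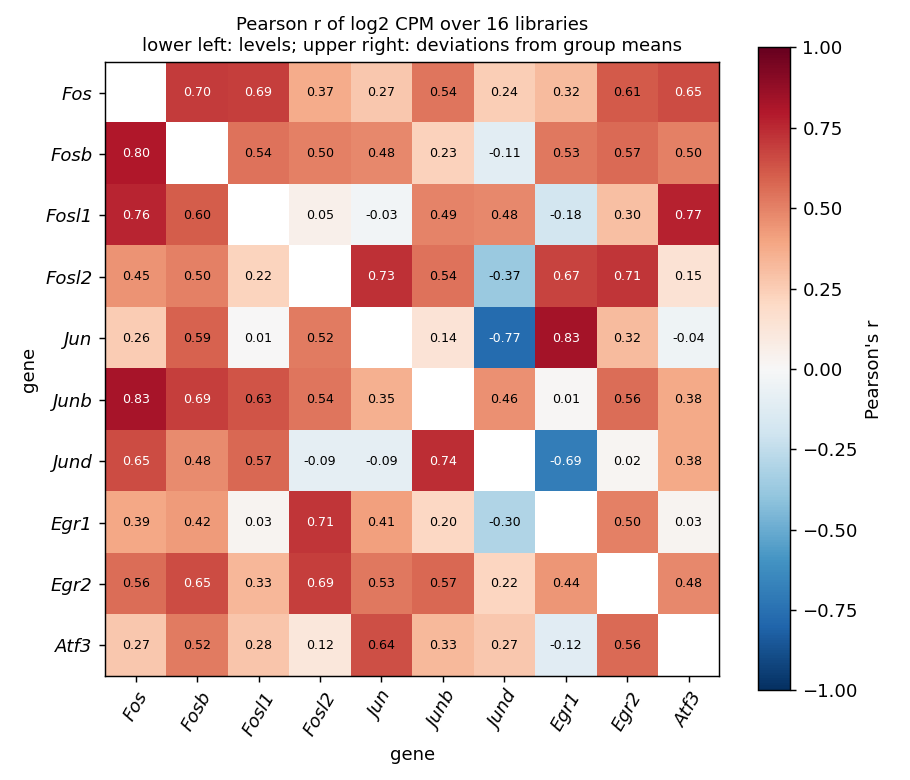
Pearson's r of log2 CPM for each of the 45 pairs of genes over 16 libraries, with levels in the lower left and deviations from group means in the upper right. The colour scale runs from -1 to 1; Fos and Junb reach 0.83 on levels, and Jun and Jund reach -0.77 on deviations.

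By the same measure, the 5 genes outside the set most like Fos were Cyr61 (r = 0.89, Spearman 0.93, within groups 0.90), Apold1 (0.88, 0.86 and 0.95), Pcdhga11 (0.86), Mrgprx3 (0.85) and Steap3 (0.84). Cyr61 and Apold1 are themselves immediate early genes, the first a secreted matrix protein and the second an endothelial protein. Without the 2 libraries farthest from the median of Fos, the values of Cyr61 and Apold1 were 0.83 each. All 5 were highest in the membrane of rat 1, where Fos was also at its highest.

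Around the 10 genes, other parts of the pathway were read from lists. These were other immediate early genes, AP-1 partners, feedback inhibitors, upstream kinases, known AP-1 targets and heat shock genes. The partner list was drawn up by family, such as ATF, BATF, JDP, MAF and CREB factors. Not all of its genes, Creb1 and Atf6 among them, encode proteins known to pair with Fos or Jun. Between the membrane and PFNU, 1 of the 32 tested other immediate early genes was called, Klf2, a flow-responsive endothelial factor, at 33.5 ± 6.32 CPM in the membrane and 17.2 ± 1.58 CPM in PFNU (SD, n = 4), a log2 fold change of 0.96 (adjusted p = 0.0478). Its lowest membrane, at 28.3 CPM, was above its highest PFNU library, at 19.0 CPM. The list's median log2 fold change was 0.36, with 23 of 32 above 0. None of the 21 tested AP-1 targets passed edgeR's test, though their median was 0.76 with 17 above 0 and 10 had an unadjusted p under 0.05. No member of the other 4 lists passed here, where 0 of 17 feedback inhibitors, 3 of 20 upstream kinases and serum response factors, 1 of 18 AP-1 partners and 1 of 11 heat shock genes had an unadjusted p under 0.05. The share of all genes tested at that unadjusted p was 15.5%. Over all genes tested 0.863% were called, 0.366% were called as higher and 51.2% had a log2 fold change above 0. The lowest p in each of these 4 lists belonged to Spry4 (-0.52, adjusted p = 0.328), Mapk3 (0.39, adjusted p = 0.121), Atf4 (0.33, adjusted p = 0.311) and Hspd1 (-0.46, adjusted p = 0.287).

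In bone beside the spacer more of the pathway passed, as did more of all genes tested, 4.91% against 0.863% between the membrane and PFNU. Calls in bone hung on single libraries, with 0 to 2578 genes called in fits without a library each against 631 with all. With the erythroid covariate no gene was called in bone. Of the AP-1 targets 4 of 21 were called, all higher, with a median of 1.07 and 19 above 0. Mmp14, a membrane-bound collagenase, was at 436 to 963 CPM in PMMA bone and 189 to 293 CPM in BNED (log2 fold change 1.65, adjusted p = 0.0338), and Ccnd1, a cell cycle cyclin, at 64.0 to 119 CPM and 28.9 to 59.6 CPM (1.10, adjusted p = 0.0431). Il6, an inflammatory cytokine, was low throughout, at 0.631 to 7.04 CPM against 0.0875 to 0.283 CPM (3.75, adjusted p = 0.0364). Mmp14, Ccnd1 and Il6 each had no overlap between the bone groups. Among the other immediate early genes 2 of 32 were called, both higher: Ier3, a survival factor induced by stress, at 21.7 ± 3.80 against 12.9 ± 1.09 CPM (0.75, adjusted p = 0.0250), and Gadd45g, a growth arrest gene, at 51.1 ± 7.05 against 22.1 ± 6.77 CPM (1.21, adjusted p = 0.0338). That list's median was 0.41 with 27 above 0. Of the feedback inhibitors 2 of 17 were called, both higher: Spry4, which restrains receptor signalling to ERK, at 30.3 ± 2.89 against 15.6 ± 5.39 CPM (0.96, adjusted p = 0.0399), and Nab2, a corepressor of Egr proteins, at 43.7 ± 5.86 against 26.4 ± 4.98 CPM (0.73, adjusted p = 0.0416). Mapk3, which encodes the kinase ERK1, was higher (0.44, adjusted p = 0.0450), and Rps6ka1, a kinase activated by ERK, was lower (-0.89, adjusted p = 0.0491), the 2 of 20 called among the upstream factors. Creb1, the CRE-binding factor, was lower at 7.48 ± 2.43 against 13.4 ± 1.27 CPM (-0.85, adjusted p = 0.0400), the 1 of 18 called on the partner list. None of 11 heat shock genes passed edgeR's test or had an unadjusted p under 0.05, against 24.3% of all genes. All lists are to be read against the 3.51% of all genes called as higher and the 1.4% called as lower in bone. The share of all genes with a log2 fold change above 0 was 49.3% there. Summed bone cell markers were also higher beside the spacer: osteoclast marker sums of 7 genes were 7605 to 15518 CPM in PMMA bone and 3189 to 5685 CPM in BNED, and osteoblast and osteocyte marker sums of 11 genes were 61959 to 96355 and 23460 to 60337 CPM. Neither sum overlapped between the bone groups, and no gene of either list was at 0. As single genes 0 of 7 and 0 of 11 were called, though all had log2 fold changes above 0. The part of these cell types in the results was not tested.

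**Figure D5:**
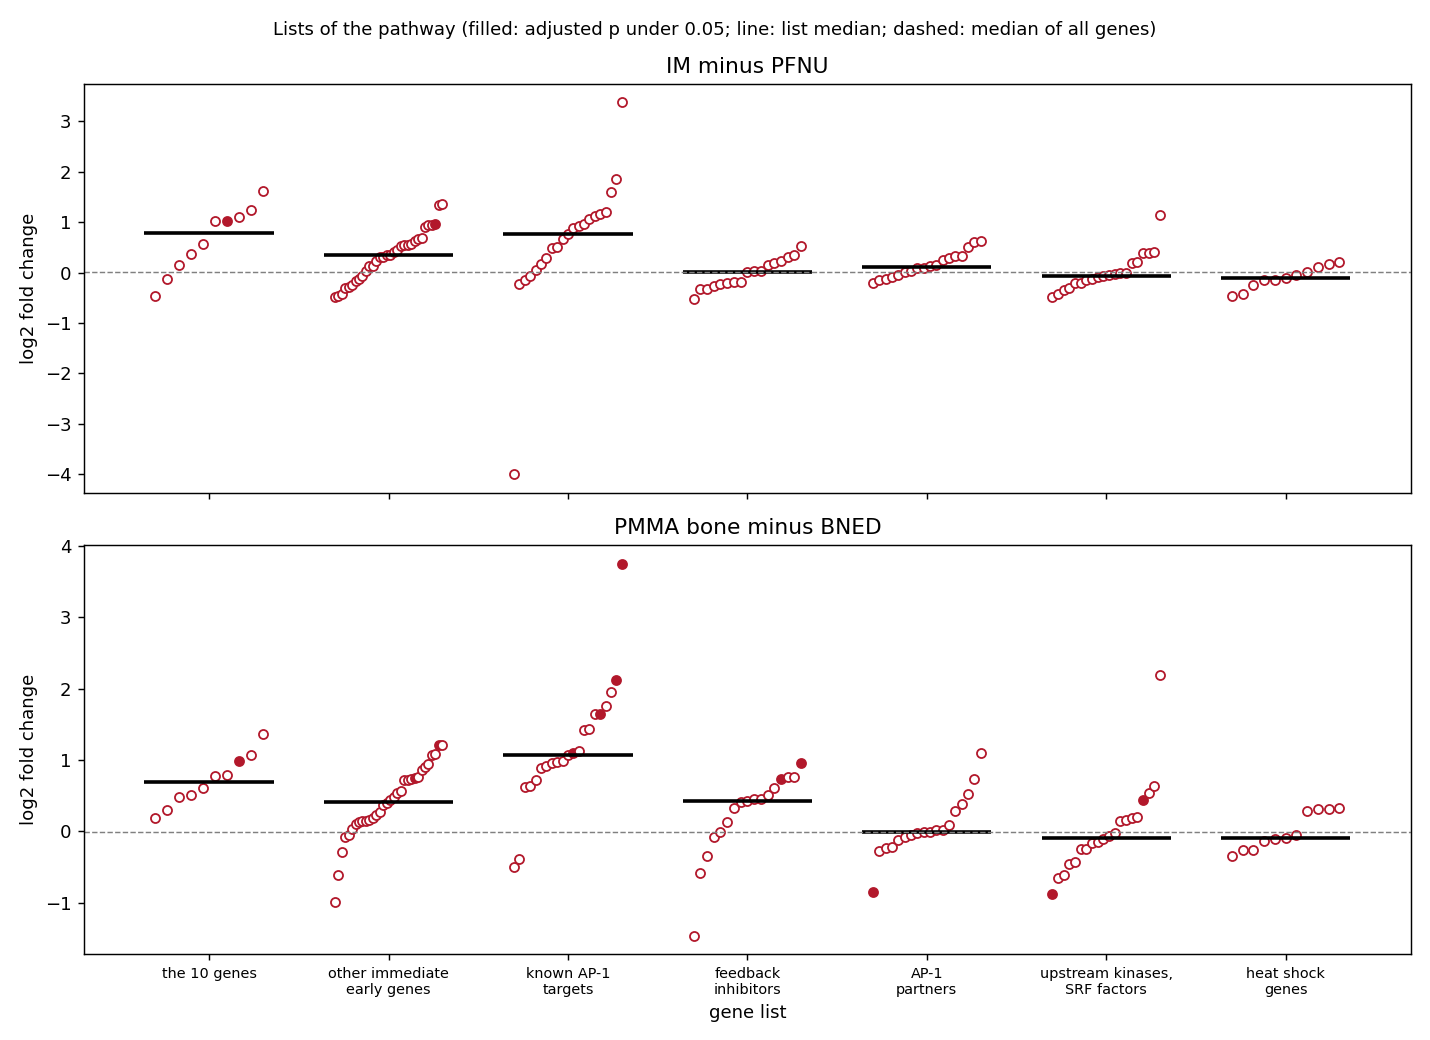
Log2 fold change of every tested gene of the 10 and of 6 pathway lists, sorted within each list, for the membrane against PFNU (top) and PMMA bone against BNED (bottom). Filled points passed an adjusted p of 0.05, the bar is the list's median and the dashed line the median of all genes; the medians of the 10 genes are 0.79 and 0.69 and those of the AP-1 targets 0.76 and 1.07.

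For the interaction no gene of these lists passed, in a comparison where edgeR called none of the 12857 genes. The lowest p in each list belonged to Spry4, with -0.52 in the defect tissue and 0.96 in bone (difference -1.47, adjusted p = 0.224), Creb1 (1.17, adjusted p = 0.249), Ccnd1 (-1.24, adjusted p = 0.395), Klf2 (0.82, adjusted p = 0.462), Rps6ka1 (0.83, adjusted p = 0.504) and Dnajb1 (0.35, adjusted p = 0.716).

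Between defect tissue and bone, genes of these lists were called in both directions. In the empty limb, where 15% of all genes tested were called as higher and 15.2% as lower, 7 of the 32 other immediate early genes were higher and 2 lower in PFNU than in BNED. Plk2, a stress-responsive kinase, was at 91.1 ± 8.52 against 39.5 ± 10.1 CPM (1.20, adjusted p = 0.00124) and Hbegf, an EGF receptor ligand, at 24.2 ± 9.23 against 8.27 ± 4.48 CPM (1.55, adjusted p = 0.00905). Csrnp1 was lower at 12.9 ± 3.19 against 37.8 ± 7.07 CPM (-1.55, adjusted p = 0.00227), as was the antiproliferative gene Btg2 at 86.8 ± 14.4 against 238 ± 39.3 CPM (-1.45, adjusted p = 0.00396). Of 17 feedback inhibitors 2 were higher, Dusp16 (1.14) and Spry2 (0.89), and 2 lower, Dusp2 (-1.20) and Dusp5 (-1.29), with adjusted p of 0.00715 to 0.0368. Of 21 AP-1 targets 3 were higher, among them the plasminogen activator Plau (1.39, adjusted p = 0.00293) and Ccnd1 (1.15, adjusted p = 0.00898). The EGF receptor ligand Areg was the 1 lower, at 0.109 ± 0.0797 against 0.599 ± 0.246 CPM. Rps6ka1 was lower (-1.33), Rps6ka3, Map2k1 and Map2k4 were higher (0.49 to 0.57), and on the partner list Maff was higher (0.94) and Creb1 lower (-0.68). Of 11 heat shock genes Bag3 (1.40) and Hspb1 (1.70) were higher and Hsp90aa1 was lower (-0.80), with adjusted p of 0.0301 to 0.0310.

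In the spacer limb, where 11.3% of all genes were called as higher and 11% as lower, 2 of 32 other immediate early genes, Ier5l (1.54) and Trib1 (1.24), were higher and 1, Csrnp1 (-1.18), lower in the membrane than in PMMA bone. Among the feedback inhibitors 2 of 17 were higher and 3 lower, with Spry2 (0.91) and Dusp10 (2.17) higher and Spry4 (-0.83) and Dusp4 (-1.97) lower among those with the lowest p. Of the AP-1 targets Plau was higher, at 171 ± 66.2 against 67.7 ± 20.9 CPM (1.34, adjusted p = 0.00633), and 4 of 21 were lower. One of these, Areg, had 1 count in a single membrane and 0 in the other 3, against 0.431 ± 0.463 CPM in PMMA bone. The matrix proteases Mmp9 (189 ± 218 against 1884 ± 920 CPM, -3.32, adjusted p = 0.00454) and Mmp13 (612 ± 655 against 3370 ± 1100 CPM, -2.46, adjusted p = 0.0201) were 2 more. Osteoclast marker sums of 7 genes were 447 to 2941 CPM in the membranes and 7605 to 15518 CPM in PMMA bone, and osteoblast and osteocyte marker sums of 11 genes were 5150 to 40567 and 61959 to 96355 CPM, with no gene of either list at 0 in these libraries; their part in these results was not tested. Of the upstream factors 5 of 20 were higher, among them Rps6ka3 (0.61), Map2k4 (0.68), Srf (0.83) and Mapk9 (0.47). On the partner list the repressor Jdp2 was lower (-1.42, adjusted p = 0.0161) and Atf6 higher (0.54, adjusted p = 0.0201). None of 11 heat shock genes passed edgeR's test, with 3 at an unadjusted p under 0.05, against 37.4% of all genes; Bag3 had the lowest p (1.04, adjusted p = 0.105).

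Marker sums of other cell types moved with several of these results. The fibroblast sum was 13335 to 26117 CPM in PMMA bone and 6865 to 8993 CPM in BNED, groups that did not overlap, and 11858 to 46109 CPM in the membranes and 9678 to 23038 CPM in PFNU. Over the 16 libraries it had an r of 0.92 with Junb (Spearman 0.94), 0.88 without the 2 libraries farthest from its median and 0.86 within groups, and between 0.16 (Egr1) and 0.70 (Fos) with the other 9 genes. Its part in the Junb result was not tested. With the erythroid sum as a covariate Junb was at a log2 fold change of 0.59 in bone (adjusted p = 0.679) and no gene was called, with 935 at an unadjusted p under 0.05; with the muscle sum it was at 0.79 (adjusted p = 0.0456). For Jund in the defect tissue the values were 1.15 (adjusted p = 0.0930) and 0.93 (adjusted p = 0.0402). In the erythroid sum every PMMA bone but that of rat 1 lay below every BNED library. Marrow content and group can therefore barely be told apart in the bone fit. Neutrophil and B cell sums were 294 to 723 and 187 to 408 CPM in PMMA bone, below the 1464 to 2371 and 692 to 949 CPM of BNED with no overlap and no gene of either list at 0. In the defect tissue the neutrophil sum was 19.7 to 55.3 CPM in the membranes and 75.1 to 124 CPM in PFNU, again with no overlap, and the B cell sum 48.6 to 94.8 and 78.1 to 111 CPM; up to 3 of 14 neutrophil and 2 of 9 B cell genes were at 0 in a membrane. T cell and endothelial sums overlapped in both comparisons, at 228 to 290 against 283 to 404 CPM and 702 to 1304 against 610 to 759 CPM in bone. In the defect tissue they were 124 to 298 against 118 to 338 CPM and 1048 to 1617 against 1025 to 1591 CPM. As single genes in bone, 4 of 10 endothelial markers were called as higher, with all 10 above 0, and 1 of 9 T cell markers as lower. Over all genes tested 3.51% were called as higher there and 1.4% as lower. No gene of either list was called in the defect tissue. The part of these cell types in the results was not tested.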

How the data were processed

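Poly-A RNA from Trizol extracts was made into stranded TruSeq libraries and sequenced from both ends, per the labels. Build rn5, TopHat2 2.0.13, Bowtie2 2.2.1, FastQC 0.11.3 and DESeq2 are named in the submitters' processing notes; which program counted reads, with which annotation and strand setting, is not given in the sources used here, so overlapping and antisense genes cannot be told apart. The deposited table holds raw counts, as whole numbers by symbol, of 14476 genes in 16 libraries of 40472228 to 76815879 counts. PCR reads carry no molecular identifiers, so depth covers counting error only.

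Groups and rats were taken from each sample's own label. Counts were fitted with edgeR 4.0.16 (R 4.3.3, quasi-likelihood F-test, TMM scaling, filterByExpr, 12857 genes) in 1 model of group means over 16 libraries, and p-values were adjusted by Benjamini-Hochberg over all genes tested, with a call at an adjusted p under 0.05. The standard error is the log2 fold change divided by the square root of F. CPM are counts scaled by TMM library size. Alternatives used DESeq2 1.42.0, limma 3.58.1, other scalings and filters, the compared groups alone, a rat block, muscle or erythroid sums as covariates and each library left out. The procedure was also run on simulated counts that had no rat effect and the same spread in all groups. The outcome is not used here. Replicates differed by more than sampling noise (lowest chi-square per degree of freedom 75.6), so none was taken for a technical duplicate. All 16 libraries were kept, also the PMMA bone of rat 1 that stood apart from its group.

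The rat numbers pair the samples because the labels give the same rats in every group; deviations of same-rat libraries from their group means correlated between -0.28 and 0.50. The members and lists, 16 beside the members, were chosen with earlier results of these data known. Of the 241 list entries, 230 were in the table. All 10 members are named, and from each pathway list and comparison up to 4 called genes with the lowest p or, with none called, the gene with the lowest p; for Fos, Fosl1 and Jund the 5 genes with the highest r are named. Values of some genes named by this rule are not reported here. Promoters came from RefSeq (GRCr8), matched by symbol; no other coordinates are printed because that build differs from rn5.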

Additional observations from a re-analysis of the deposited data

How the results depend on the processing

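Counts of genes called with an adjusted p under 0.05 moved more than the fold changes of the members. For the membrane against PFNU 111 genes were called, 572 by DESeq2, 0 by limma-voom with quality weights (1558 at an unadjusted p under 0.05), 0 with those groups alone (1323 unadjusted), 203 with the muscle covariate and 8 with the erythroid covariate, and 11 to 244 without a library each (11 without the PFNU of rat 4, 244 without the membrane of rat 4). Members called there were 1 of 10, 4 by DESeq2 (Fos, Fosb, Junb, Jund), 0 with RLE size factors, without a filter on low counts, with a filter of 1 CPM, by limma-voom, with the groups alone and with the erythroid covariate, and 0 to 3 without a library each. For PMMA bone against BNED 631 genes were called, 1546 by DESeq2, 6244 by limma-voom, 1767 with the groups alone, 1962 with the muscle and 0 with the erythroid covariate (935 unadjusted), and 0 to 2578 without a library each (0 without the PMMA bone of rat 2, 3 or 4 or the BNED of rat 1 or 3, 2578 without the PMMA bone of rat 1). Members called there were 1, 5 by limma-voom (Fos, Fosl2, Jun, Junb, Egr1), 2 with the groups alone (Junb, Egr1), 0 with the erythroid covariate and 0 to 1 without a library each. The interaction gave 0 genes, 136 by DESeq2, 218 by limma-voom, 139 with the muscle and 1 with the erythroid covariate, and 0 to 199 without a library each (199 without the PMMA bone of rat 1); 0 members were called under each of these. The membrane against PMMA bone gave 2860 genes, 908 with the groups alone, 827 with the muscle and 461 with the erythroid covariate, and 1818 to 4047 without a library each; its 2 members called (Jund, Atf3) became 3 by limma-voom (Fosb, Jun, Jund), 2 with the muscle covariate (Jund, Egr2), 1 without a filter on low counts, 0 with the groups alone, 0 with the erythroid covariate and 0 to 3 without a library each. PFNU against BNED gave 3884 genes, 6720 by limma-voom, 1539 with the muscle and 0 with the erythroid covariate (2449 unadjusted), and 2637 to 4755 without a library each; its 2 members called (Jun, Atf3) were 3 with the groups alone (Fosb, Jun, Atf3), 2 with the muscle covariate (Egr2, Atf3), 0 with the erythroid covariate and 2 to 2 without a library each. The number of all genes called is not reported here for the membrane against PMMA bone by limma-voom. Nor is it for PFNU against BNED with the groups alone. Members gained in those fits therefore cannot be read against the share of all genes. Pairing by the replicate block for rat gave 47 genes and 0 members for the membrane against PFNU, 454 and 0 for bone, 0 and 0 for the interaction, 2774 and 1 for the membrane against PMMA bone and 3734 and 2 for PFNU against BNED; it changed no other member's call. Log2 fold changes changed sign as follows. For the membrane against PFNU, Jun was 0.0560 by limma-voom, Egr2 -0.0283 with the muscle and -0.14 with the erythroid covariate and Fosl2 -0.45 with the erythroid covariate; without a library each, Egr2 ran from -0.32 to 0.47 and Jun from -0.32 to 0.14. In bone Jund was -0.0203 with the muscle covariate. For the interaction limma-voom gave Fosl1 -0.22, Junb -0.18 and Egr1 0.36, and without a library each Fosb ran from -0.48 to 0.78, Fosl1 from -0.22 to 0.79, Junb from -0.15 to 0.28 and Egr1 from -0.59 to 0.30. For the membrane against PMMA bone limma-voom gave Fosl1 -0.30 and Egr1 0.32, the muscle covariate Fosl2 0.0183 and the erythroid covariate Jun -0.0584, Junb -0.20 and Egr2 -0.32; without a library each Fosl1 ran from -0.37 to 0.65, Fosl2 from -0.60 to 0.0653, Egr1 from -0.63 to 0.25 and Egr2 from -0.0205 to 0.67. For PFNU against BNED the muscle covariate gave Fosl1 0.68 and Jund 0.36 and the erythroid covariate Fosl1 0.0126, Fosl2 -1.65, Junb -0.36, Jund 0.37 and Egr2 -0.0029; without a library each Fos ran from -0.0785 to 0.27, Fosl1 from -0.29 to 0.0443, Jund from -0.12 to 0.0243 and Egr1 from -0.13 to 0.11. The cause of these changes was not tested. Neither the muscle nor the erythroid sum overlapped between defect tissue and bone of the same limb. The covariate fits of those comparisons therefore cannot tell tissue content and group apart. Depth limits Fosl1, with 37 to 286 counts per library, most among the members.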

Other observations

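Fosl1 and Jund had different companions over the 16 libraries. The 5 genes most like Fosl1 were Enpp1 (r = 0.81), a pyrophosphate-producing ectoenzyme, Clec2d (0.78), Ankrd37 (0.78), Pcdhga11 (0.78) and Arhgap24 (0.78), and without the 2 libraries farthest from the median of Fosl1 these were 0.61, 0.65, 0.74, 0.57 and 0.56. The membrane of rat 1 was highest for Enpp1, Clec2d, Pcdhga11 and Arhgap24 and the PMMA bone of rat 1 for Ankrd37. The 5 most like Jund were Rhoa (0.94), Tmem50a (0.92), Pfn1 (0.91), Ube2e2 (0.90) and Ap2m1 (0.90), and all 5 were highest in the membrane of rat 2. Rhoa and Pfn1 act on the actin cytoskeleton. Rhoa was at 190 to 443 CPM and Pfn1 at 372 to 855 CPM over the libraries, and without the 2 libraries farthest from the median of Jund their r was 0.69 and 0.73. The libraries share rats, tissue and scaling, so these are descriptions.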
